A study of Mus musculus with 12 samples.

Results

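The regions described here are the narrow Nfib peaks that were called in the mouse small cell lung cancer line KP1 and not in the line KP22. Members were the KP1 peaks on chromosomes 1 to 19 other than chromosome 4 that were under 500 bases wide and shared no base with any KP22 peak. There were 15557 of them, which was 62.5% of the 24905 peaks of the KP1 list. On the same chromosomes they made up 74.0% of the 21028 narrow KP1 peaks. The KP22 list was much shorter, with 10120 peaks in all. On these chromosomes it had 9034 peaks, against 22469 KP1 peaks of any width. A large share of KP1 peaks without KP22 overlap thus follows in part from the sizes of the lists. Members were chosen by measured values, namely the positions and widths of called peaks, so their absence from the KP22 list is a matter of definition. All positions are in the mouse genome build mm9, counted from 1.

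Nfib (nuclear factor I B) belongs to a family of transcription factors that bind DNA as dimers at a palindromic site, mostly in promoters and enhancers. It acts in the development of lung and brain, and its gene is often gained in small cell lung cancer, a neuroendocrine tumour of the lung. Chromatin immunoprecipitation followed by sequencing gives the stretches of DNA that an antibody to Nfib pulled down above background, and each such stretch is called a peak.

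The study sequenced 12 libraries, 2 inputs and 2 Nfib pulldowns from each of 3 tumour-derived lines. All lines were Trp53-/-;Rb1-/- and were grown as floating spheres. By the labels, Nfib expression was high in KP1 and 16T and low in KP22, and no agent or treatment is named. The deposited file for 16T contained 0 intervals, so only KP1 and KP22 are compared. The level of Nfib and all other differences between these lines cannot be told apart, since each class is represented here by 1 line and 1 list. Sequencing depth is unknown and the peaks carry no score, so a site missing from the KP22 list may still carry signal below the authors' threshold. Percentages below have exact Clopper-Pearson 95% intervals in parentheses, which cover counting error only, as if peaks were independent. No test was made between sets of peaks, because peaks of 1 list share their libraries and are not replicates.

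The first question was whether sites called only in KP1 lay beside sites of the low line or in stretches where the low line had none. Sites of both kinds were found, and the largest class lay between these extremes. The median distance from the edge of a member to the edge of the nearest KP22 peak was 53.9 kb (interval 52.1 to 55.6), with quartiles at 17.2 and 138.5 kb. Of the members, 672 lay within 1 kb of a KP22 peak, which was 4.32% (4.01 to 4.65). A further 2042 lay between 1 and 10 kb (13.1%, 12.6 to 13.7), so that 17.4% (16.9 to 18.1) lay within 10 kb. Between 10 and 100 kb lay 7691 members, 49.4% (48.6 to 50.2). Over 100 kb from any KP22 peak lay 5152 members, 33.1% (32.4 to 33.9). Over 500 kb lay 700 members (4.50%, 4.18 to 4.84), and over 1000 kb lay 156 (1.00%, 0.852 to 1.17).

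Narrow KP1 peaks that did overlap a KP22 peak gave a reference for these distances, measured to the nearest KP22 peak that they did not overlap. The 5471 shared narrow peaks lay slightly nearer, with a median of 43.7 kb and quartiles at 13.1 and 117.1 kb. Of them, 21.0% (19.9 to 22.1) had such a KP22 peak within 10 kb and 28.8% (27.6 to 30.0) had none within 100 kb. The distributions overlapped over most of their ranges, as the plot of distances shows, with members from 2 bases to 4123 kb and shared narrow peaks from 0 bases to 3398 kb. The difference in medians was small beside the spread of either set.

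**Figure D1:**
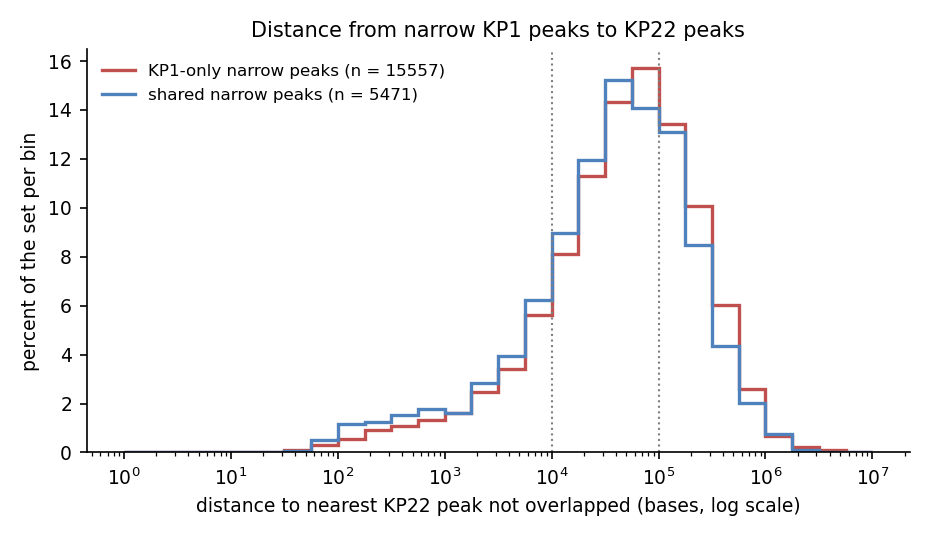
Distance from each narrow KP1 peak to the nearest KP22 peak it does not overlap (x axis, bases, log scale) against the percent of each set per bin (y axis), for KP1-only and shared narrow peaks, with dotted lines at 10 kb and 100 kb. Both curves are highest between the dotted lines, and the KP1-only curve (median 53.9 kb) sits slightly to the right of the shared one (median 43.7 kb).

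Members were nonetheless denser near KP22 peaks than far from them. The stretch from the first to the last peak of each chromosome, without the KP22 peaks themselves, came to 2254 Mb. Of this length, 7.11% lay within 10 kb of a KP22 peak, against 17.4% of members. Within 100 kb lay 44.4% of the length, against 66.9% (66.1 to 67.6) of members. Nearness to KP22 peaks was not particular to members. Of the shared narrow peaks, 21.0% lay within 10 kb and 71.2% (70.0 to 72.4) within 100 kb of a KP22 peak they did not overlap. The length includes long stretches without any peak, and mappability was not taken into account. The density was 49.4 members per Mb within 0.25 kb of a KP22 peak, 49.1 between 0.25 and 0.5 kb and 27.7 between 0.5 and 1 kb. It was 18.7 between 1 and 2 kb, 11.6 between 10 and 20 kb and 5.98 between 100 and 200 kb. Beyond 1000 kb it was 1.37 members per Mb. The density thus fell at every step of distance in the classes counted.

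Density also fell with the length of the gaps free of KP22 peaks. This is not separate from the fall with distance, since only long gaps hold places far from a KP22 peak. Such a gap runs from one KP22 peak to the next on a chromosome, and the median gap was 107.5 kb long. Gaps of up to 10 kb held 42.2 members per Mb, those of 10 to 100 kb held 16.3, and those of 100 to 300 kb held 11.1. Gaps of 300 to 1000 kb held 6.32 members per Mb, those of 1000 to 3000 kb held 3.19 and longer ones 1.67. Because long gaps cover more of the genome, most members nonetheless lay in them: gaps of 100 to 1000 kb held 5329 and 5197 members below and above 300 kb, 34.3% and 33.4% of all. Of 9016 gaps, 5244 held at least 1 member, which was 58.2% (57.1 to 59.2). Among the 399 gaps of 1000 to 3000 kb this share was 91.5% (88.3 to 94.0), and 34 of them held none. Gaps with 10 or more members numbered 166 and held 2109 members.

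Windows of 1 Mb set the number of members beside the number of KP22 peaks, without the other KP1 peaks. Of 2269 windows, 353 held no KP22 peak, and 223 of these held at least 1 member. Together these 353 windows held 742 members, 4.77% of all. The median was 1 member in windows without a KP22 peak, 4 in the 1120 windows with 1 to 4 KP22 peaks, 10 in the 579 windows with 5 to 9 and 15 in the 217 windows with 10 or more. Across windows the counts of members and KP22 peaks had a Pearson r of 0.684 and a Spearman rho of 0.684. This describes windows of 2 lists on 1 genome, and windows are not independent replicates. Windows with neither kind of peak numbered 130. Gene density and mappability were not taken into account, and their part in the relation was not tested.

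The KP22 peaks beside members were mostly sites that KP1 also had. For members within 10 kb of a KP22 peak, the nearest one was also called in KP1 in 2151 of 2714 cases, 79.3% (77.7 to 80.8). Within 1 kb this was 555 of 672, 82.6% (79.5 to 85.4). For all members it was 70.9% (70.2 to 71.6), and for those over 100 kb from KP22 67.8% (66.5 to 69.1). A KP1 peak shared with KP22 lay within 10 kb of 14.4% (13.8 to 14.9) of members. Another such peak lay within 10 kb of 16.3% (15.3 to 17.3) of shared narrow peaks. Of all 9034 KP22 peaks on these chromosomes, 66.7% (65.7 to 67.6) overlapped a KP1 peak. Counted from the KP22 side, 1848 of the 6022 shared KP22 peaks had a member within 10 kb, 30.7% (29.5 to 31.9). Of the 3012 KP22 peaks without KP1 overlap, 539 did, 17.9% (16.5 to 19.3). Shared KP22 peaks were also the wider ones, with a median width of 248 bases against 195.

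The 10 members nearest to a KP22 peak lay 2 to 38 bases from it. The closest lay on chromosome 17 from 72022969 to 72023138, 2 bases after a KP22 peak that ended at 72022966. The next lay on chromosome 10 from 21642861 to 21643163, 4 bases after a KP22 peak that ended at 21642856. On chromosome 8, the member from 90722930 to 90723084 lay 10 bases after a KP22 peak of 678 bases, the widest KP22 neighbour among the 10. In 6 of these 10 the KP22 neighbour was itself shared with KP1, and the nearest other KP1 peak then lay 63 to 198 bases away, so that the member lay beside an interval of both lines. In the other 4 the neighbour was called in KP22 alone. One of these was the member on chromosome 17 from 37095281 to 37095535, 12 bases from a KP22 peak between 37095097 and 37095268, with the next KP1 peak 15.5 kb away. The tenth place, at 38 bases, was tied with a member on another chromosome.

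No member touched a KP22 peak, and the limit of the rule divided few peaks. Members within 100 bases of a KP22 peak numbered 69, of which 20 lay within 50 bases. On the other side of the limit, the smallest overlap among shared narrow peaks was 7 bases, on chromosome 7 from 107756086 to 107756235. Overlaps of up to 50 bases were found in 21 shared narrow peaks, and the median overlap was 198 bases.

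At the other end, the 10 members farthest from any KP22 peak lay in 2 stretches. Of these, 7 lay on chromosome 15 between 11895020 and 12447337, at distances of 3665 to 4123 kb. The farthest lay from 12422966 to 12423238, with a width of 273 bases. Its nearest KP22 peak, from 16546500 to 16546831, was 4123 kb away, while another KP1 peak lay 23.9 kb away. The other 3 lay on chromosome 14 between 86456929 and 86598947, at 3452 to 3594 kb from the nearest KP22 peak. Their first pair, from 86456929 to 86457100 and from 86462934 to 86463083, lay 5.83 kb apart.

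The stretch on chromosome 15 was both the longest gap of the KP22 list on these chromosomes and the one with the most members. It ran from 8230180 to 16546499, 8.32 Mb, and held 32 members and 0 wider KP1 peaks. These members spread from 8394836 to 14619241, with a median spacing of 65.5 kb and widths of 150 to 468 bases. They were also the longest run of consecutive KP1 peaks made up of members alone. The second gap, on chromosome 3 from 136407737 to 138189961, held 28 members in 1.78 Mb, with a median spacing of 18.2 kb. All 28 lay within 1.29 Mb and formed the second longest run.

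The third gap lay on chromosome 6 from 50589931 to 52791680 and held 27 members and 2 wider KP1 peaks in 2.20 Mb. The fourth lay on chromosome 7 from 142715993 to 144752074, with 26 members and 4 wider KP1 peaks in 2.04 Mb. The fifth lay on chromosome 2 from 74041205 to 75481360, with 24 members and 4 wider KP1 peaks in 1.44 Mb. The outermost members of these 3 gaps lay near their ends, and spanned 2.14 Mb on chromosome 6, 1.95 Mb on chromosome 7 and 1.42 Mb on chromosome 2. Between them the members were uneven, with the widest spacing between neighbouring members at 526.4, 565.8 and 288.7 kb in the same order. The map of the gaps shows the contrast with chromosome 15, where the last 1927 kb of the gap held no member. The 5 gaps held from 3.85 members per Mb on chromosome 15 to 16.7 on chromosome 2. The 6.90 members per Mb over all gaps lay between these values, and long gaps had the lowest densities in general.

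**Figure D2:**
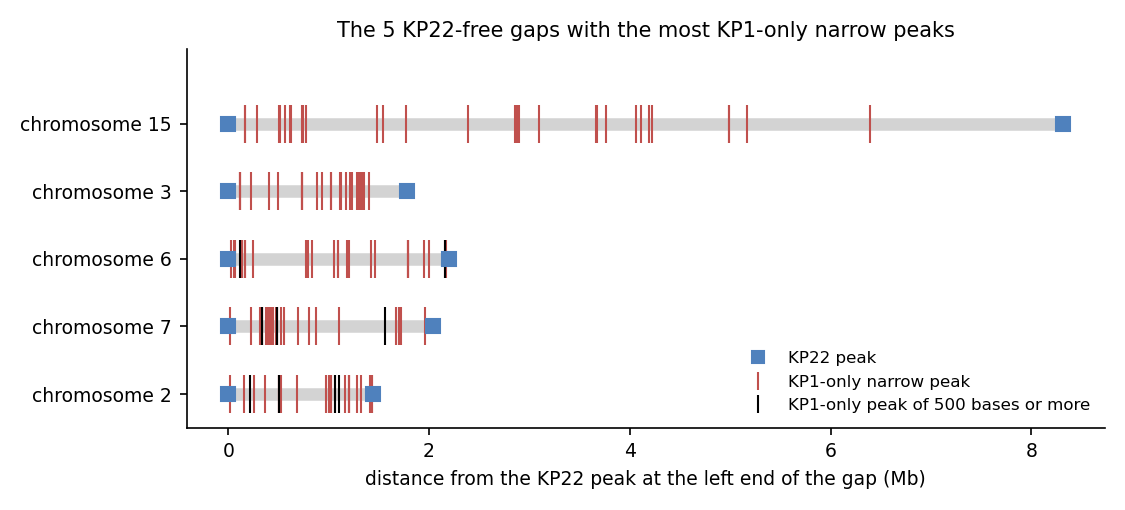
The 5 KP22-free gaps with the most KP1-only narrow peaks, drawn by distance from the KP22 peak at their left end (x axis, Mb), with KP22 peaks as squares and KP1 peaks as ticks. The 32 members on chromosome 15 spread over an 8.32 Mb gap, and the 24 on chromosome 2 span 1.42 Mb of a 1.44 Mb gap.

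The number of members differed widely among the longest gaps. The second longest gap, on chromosome 14 from 82509560 to 90051122 (7.54 Mb), held 13 members. The third longest, on chromosome 7 from 39039734 to 46460525 (7.42 Mb), held 0, as did a gap of 5.17 Mb on chromosome 14 from 3323835 to 8492992. Mappability was not analysed here. A gap of much smaller length than these was more crowded: on chromosome 7 from 136818403 to 137463347, 22 members lay in 0.645 Mb, or 34.1 per Mb.

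Members followed each other along the chromosome about as often as their share of the list gives. They made up 69.2% of the KP1 peaks on these chromosomes, and the next KP1 peak after a member was another member in 70.0% of cases (69.2 to 70.7). After a shared peak it was a member in 66.8% (65.6 to 68.0), and after a KP1-only peak of 500 bases or more in 73.1% (70.0 to 76.0). The members formed 4681 runs without another kind of KP1 peak between them, with a median of 2 members. Runs of 10 or more numbered 204 and held 2551 members. After those on chromosomes 15 and 3, the longest had 23 members each, on chromosome 6 from 50716426 to 52745318, on chromosome 9 from 42280271 to 43468610 and on chromosome 17 from 85148815 to 86725615. The run on chromosome 6 held 0 KP22 peaks, and the other 2 held 2 KP22 peaks each.

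Many members had a close neighbour in KP1 itself. The nearest other KP1 peak of any kind lay at a median of 12.3 kb, against 16.8 kb for shared narrow peaks, and within 1 kb for 18.5% (17.9 to 19.1) of members against 13.7% (12.8 to 14.7). Another member lay within 10 kb for 5756 members, 37.0% (36.2 to 37.8). This was more frequent beside KP22 sites, where members were also denser, and the shares were not adjusted for that density. Of the members within 10 kb of a KP22 peak, 46.1% (44.2 to 48.0) also had another member within 10 kb, against 29.5% (28.3 to 30.8) of those over 100 kb from KP22. Members with neither a KP22 peak nor another member within 10 kb numbered 8339, 53.6% (52.8 to 54.4). A stricter form of isolation, with neither a KP22 peak nor any other KP1 peak within 100 kb, was met by 1206 members, 7.75% (7.34 to 8.18).

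When members up to 10 kb apart were joined, 9801 stood alone, 1797 groups had 2 members and 631 had 3 or more. The largest group had 10 members on chromosome 9 from 3003898 to 3016728, 0.280 kb from a KP22 peak. That end of the chromosome, up to 3038281, held 39 KP1 peaks in all, of which 26 were 500 bases or wider, and 6 KP22 peaks. Repeats were not analysed here, and their part in this group was not tested. It held 13 members, 0.0836% of all. The next largest group had 8 members in 9.88 kb on chromosome 2 from 156895079 to 156904957, 0.285 kb from a KP22 peak. Of the 7 groups of 7 members, 4 lay within 0.4 kb of a KP22 peak and 3 did not. The most distant of the latter lay on chromosome 3 from 137710834 to 137738451, 451.5 kb from KP22, inside the gap described above.

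The 1 Mb windows with the most members were also rich in KP22 peaks, with 1 exception among the 10. The window from 100 to 101 Mb of chromosome 6 held 36 members and 17 KP22 peaks. The windows from 167 to 168 Mb of chromosome 2 and from 113 to 114 Mb of chromosome 5 held 34 members each, with 17 and 16 KP22 peaks. The window from 71 to 72 Mb of chromosome 7 was the exception, with 30 members beside 1 shared narrow peak and 3 KP22 peaks. Among windows without any KP22 peak, that from 137 to 138 Mb of chromosome 3 had the most, with 22 members, followed by 19 from 143 to 144 Mb of chromosome 7 and 16 from 156 to 157 Mb of chromosome 1.

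Members were narrower than shared narrow peaks. Their median width was 214 bases (quartiles 169 and 289), against 245 (193 and 316). The narrowest width of the KP1 list, 150 bases, was that of 1908 members, 12.3% (11.8 to 12.8), and of 282 shared narrow peaks, 5.15% (4.58 to 5.77). Read the other way, 87.1% (85.6 to 88.5) of the peaks of 150 bases were called in KP1 alone. The share was 79.1% (78.0 to 80.1) at 151 to 199 bases, 71.6% (70.2 to 72.9) at 200 to 249 bases and 68.1% (66.4 to 69.7) at 250 to 299 bases. From there up to 499 bases it stayed between 66.9% and 69.4%, with overlapping intervals. Of KP1 peaks of 500 bases or more, which are outside the rule, 61.8% (59.3 to 64.3) overlapped no KP22 peak.

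**Figure D3:**
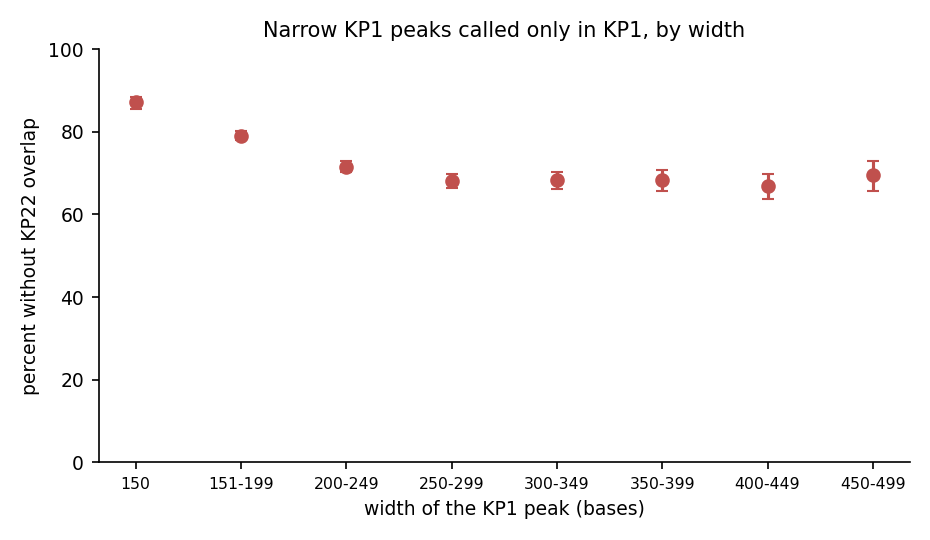
Percent of narrow KP1 peaks without KP22 overlap (y axis, points, with exact 95% intervals as bars) by width of the KP1 peak in bases (x axis). The share fell from 87.1% at 150 bases to 68.1% at 250 to 299 bases and showed no further ordered change above that.

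Width varied little with the distance from KP22. The median width was 207 bases within 1 kb of a KP22 peak, 219 between 1 and 10 kb, 215 between 10 and 100 kb, 213 between 100 and 500 kb, 208 between 500 and 1000 kb and 203 beyond. Members of 150 bases made up 13.1% (10.6 to 15.9) of the nearest class and 12.2% (7.49 to 18.4) of the farthest. The widest members had 499 bases and numbered 7. One of them, on chromosome 2 from 105196865 to 105197363, lay 773.8 kb from any KP22 peak, and another on the same chromosome, from 128034252 to 128034750, lay 1.44 kb from one. Around the width limit, 91 KP1 peaks of 490 to 499 bases were members and 37 were shared. Of those of 500 to 509 bases, 63 overlapped no KP22 peak and 35 did.

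The proportion of members differed modestly between chromosomes. The percentage of narrow KP1 peaks called in KP1 alone ran from 72.0% (68.1 to 75.6) on chromosome 19 to 78.1% (74.8 to 81.2) on chromosome 14. Chromosome 18 was next to the top with 77.9% (75.0 to 80.6), and chromosome 11 next to the bottom with 72.0% (69.8 to 74.2). Neighbours in this order had overlapping intervals. The intervals of chromosomes 11 and 2 lay below those of chromosomes 14 and 18, and that of chromosome 7 lay below that of chromosome 18. These intervals cover counting error only, as if peaks were independent. The pairs named were picked from all pairs of chromosomes, and no test was made between chromosomes. The percentage was lower on chromosomes with more KP22 peaks per Mb. Over the 18 chromosomes the Pearson r was -0.636 and the Spearman rho -0.678, given as a description. The rule itself ties the percentage to the KP22 peaks, since a KP1 peak that overlaps one is not a member. No result about members is drawn from this relation. The number of members per Mb varied more, from 4.30 on chromosome 14 to 10.0 on chromosome 11, and followed the number of KP22 peaks per Mb (2.49 and 6.30 on the same chromosomes). These densities had a Pearson r of 0.906 and a Spearman rho of 0.818 over the same chromosomes, likewise as a description.

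Chromosome 11 held the members that lay closest to the low line's sites, with a median of 35.1 kb, 23.8% (21.5 to 26.4) within 10 kb and 21.4% (19.1 to 23.9) over 100 kb. On chromosome 14 the median was 80.6 kb, with 43.3% (39.0 to 47.7) over 100 kb. Chromosome 3 was similar to the latter, with a median of 76.5 kb and 42.7% (39.1 to 46.4) over 100 kb, and had the lowest share within 10 kb, 12.3% (10.0 to 14.9). Chromosome 11 also had the most KP22 peaks per Mb (6.30), and chromosomes 14 and 3 had the fewest (2.49 and 3.01). The distances were not adjusted for this density. The plot by chromosome shows that the distance varied more between chromosomes than the share called in KP1 alone.

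**Figure D4:**
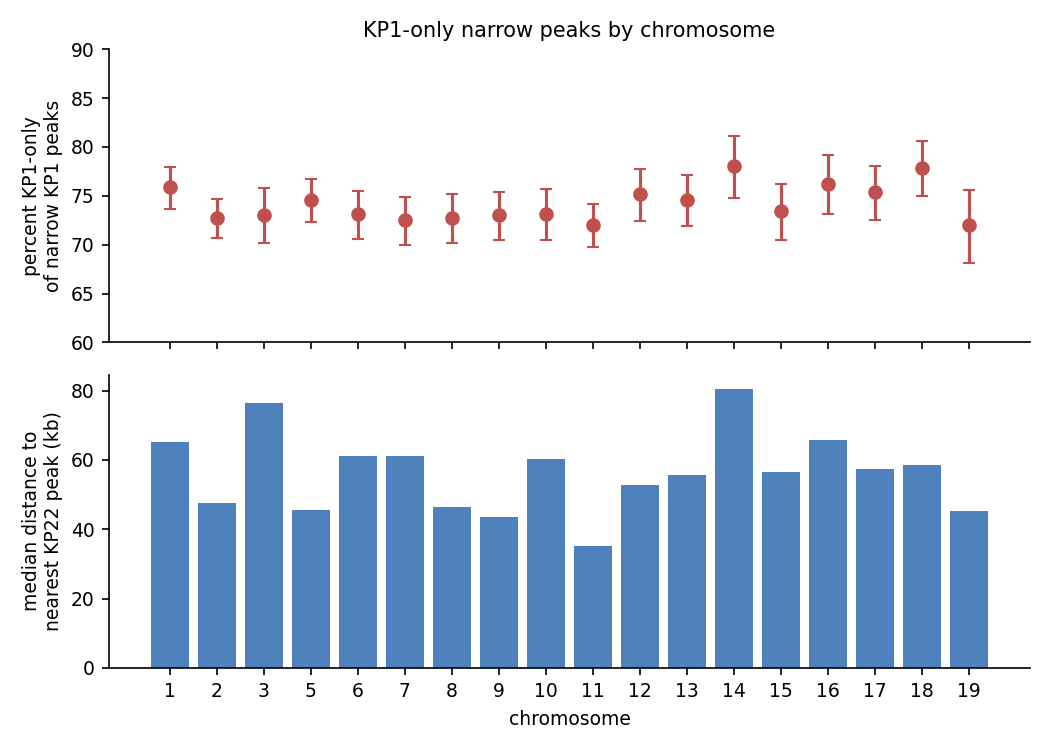
By chromosome (x axis), the percent of narrow KP1 peaks called only in KP1 (top, points with exact 95% intervals, axis from 60% to 90%) and the median distance of these peaks to the nearest KP22 peak in kb (bottom, bars). The percent ran from 72.0% to 78.1%, and the median distance from 35.1 kb on chromosome 11 to 80.6 kb on chromosome 14.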

How the data were processed

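Per the submitters' processing notes, Bowtie2, MACS2 and the build mm9 were used, with no version or role stated. The threshold of peak calling, and whether replicates were pooled for it, are not given in the sources used here. Either could change how many peaks each line has. The deposited KP1 and KP22 lists give a start and an end per peak, and 0 peaks have a score. The authors' deposited table of merged regions carries region numbers without positions and was not used.

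Overlaps, distances, gaps, windows and exact binomial intervals were computed with scipy 1.17.1, numpy 2.4.6 and pandas 2.3.3 (Python 3.11.15), and figures with matplotlib 3.10.9. Distances run from edge to edge, and overlap means at least 1 shared base. The nearest-peak and overlap functions were tested on simulated intervals. The members and the measures were chosen with earlier results of these data known. The rule for named regions was the 10 nearest, 10 farthest and 10 widest members, the 5 gaps with the most members and the 5 longest runs. Groups of members, 1 Mb windows, other gaps and the start of chromosome 9 were chosen after their values were seen. Motifs and nearby genes were not analysed here, since no mm9 genome or annotation was at hand.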

Additional observations from a re-analysis of the deposited data

How the results depend on the processing

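The number of members ran from 12075 with a width limit of 300 bases to 16987 with chromosome 4 included, always within 1.5 times the 15557 given. The reciprocal overlap of at least 50% moved 3 values beyond their intervals: 21.0% of members then lay within 10 kb, 31.7% over 100 kb, and the median distance was 49.2 kb, since peaks that overlap less than this then count as members at a distance of 0. With chromosome 4 included, 18.1% lay within 10 kb. The median width was 192 bases with the limit of 300 bases, 221 without a limit and 229 without peaks of the smallest width, each by construction. Distances from centre to centre and a tolerance of 100 bases left all values within their intervals, as did every combination of alternative and value not named here. No paired analysis was possible because the lists hold no value per library. Likewise no replicate could be left out, and a stricter peak threshold could not be set without scores. The motif alternative was not run.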

Other observations

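On the chromosomes outside the rule, narrow peaks called in KP1 alone made up similar shares of the narrow KP1 peaks, with 1430 of 1912 on chromosome 4 (74.8%, 72.8 to 76.7) and 179 of 247 on chromosome X (72.5%, 66.4 to 77.9). On chromosome 4 they lay at a median of 37.2 kb from a KP22 peak, with 25.8% (23.6 to 28.2) within 10 kb. On chromosome X the median was 82.0 kb, with 13.4% (8.78 to 19.3) within 10 kb. Chromosome 4 had 859 KP22 peaks and chromosome X had 213, and the distances were not adjusted for this number. Seen from the low line, the 3012 KP22 peaks without KP1 overlap on the chromosomes studied lay at a median of 27.3 kb from the nearest KP1 peak. This distance was measured to 22469 KP1 peaks, whereas that of members was measured to 9034 KP22 peaks. The medians are therefore not directly comparable.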
